A study of Mus musculus with 4 samples.

Results

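The Notch and secretory fate genes are 10 genes that act where crypt cells choose between the secretory and the absorptive path: Atoh1, Spdef, Gfi1, Foxa3 and Sox9 (transcription factors), Dll1, Dll4 and Jag1 (Notch ligands), Notch1 (receptor) and Hes1 (target). They were taken by symbol from the 32285 genes of the deposited matrices, and all 10 were found there. Their transcripts were counted in single cells of mouse small-intestinal crypts from droplet libraries made with the 3′ v2 chemistry of 10x Genomics. There were 4 libraries, 2 of a 2D group (2D-1 and 2D-2) and 2 of a 0D group (0D-1 and 0D-2). The series design names mice before and after sleep deprivation, so 2D is read here as after and 0D as before, although the meaning of D is not written out in the labels. Strain, age and any genotype were not given in the sources used here, and the labels do not say that the libraries came from separate animals. P-values between 2D and 0D therefore reflect library-to-library spread alone. P-values between kinds of cell reflect how the difference within a library varied over the 4 libraries. Either spread can be technical.

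Notch signalling works between touching cells. A ligand such as Dll1 or Dll4 on the sending cell leads to cleavage of a receptor such as Notch1 on the receiving cell, and the freed receptor fragment joins the DNA-binding protein Rbpj in the nucleus and switches on targets such as Hes1. In the crypt, Hes1 represses Atoh1, and cells that keep Atoh1 become secretory and carry the ligands, while cells with active Notch stay stem cells or become absorptive.

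The 2D libraries kept 7025 and 7988 cells at median depths of 11117 and 9247.5 UMIs (unique molecular identifiers, counts of captured transcript molecules), and the 0D libraries 7586 and 7132 cells at 12115.5 and 13340.5 UMIs. Pairs of libraries shared 13 to 16 cell barcodes. Over 7384 genes, 2D-1 and 2D-2 differed by 0.378 on the log2 scale (root mean square), 0D-1 and 0D-2 by 0.112, and libraries of different groups by 0.292 to 0.39. Results that rest on 1 library of the 2D pair are therefore given with and without it. Cells were placed in 12 gates from the share of their UMIs in marker lists that hold none of the 10 genes. Cells past more than 1 lineage limit, immune cells and cells in no gate were left out. The gates were stem (984 cells), dividing stem (1166), dividing without lineage (2546), dividing intermediate goblet (414), intermediate goblet (338), dividing goblet (2075), goblet (10783), Paneth (1510), enteroendocrine (1790), tuft (866), dividing absorptive (695) and absorptive (2620). Intermediate means goblet marker UMIs of 60 to 250 per 10000, and gates not called dividing hold cells below the limit for mitotic genes. The intermediate goblet gate also held Neurog3, the endocrine progenitor factor, at 253 and 837 CPM in 2D-1 and 2D-2 and at 303 and 504 CPM in 0D-1 and 0D-2, so it is called by its rule and not as a cell type.

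The stretches before the starts of 3 genes that were high together in the goblet gate (Atoh1, Spdef and Foxa3) and of Jag1, which was not, are shown to set the letters beside the expression pattern. Each run is the 250 bases before the RefSeq start in build GRCm38.p6, read 5′ to 3′ on the gene's strand, and 8 of the 10 genes had entries. The Atoh1 run lies at chr6:64728875-64729124 on the plus strand, the Spdef run at chr17:27728952-27729201 on the minus strand, the Foxa3 run at chr7:19023540-19023789 on the minus strand and the Jag1 run at chr2:137116521-137116770 on the minus strand. Capitals mark a match to CAGCTG, an E-box of the kind that factors such as Atoh1 can bind, or to TGGGAA, which is TTCCCA on the other strand and the core recognised by Rbpj.
Atoh1: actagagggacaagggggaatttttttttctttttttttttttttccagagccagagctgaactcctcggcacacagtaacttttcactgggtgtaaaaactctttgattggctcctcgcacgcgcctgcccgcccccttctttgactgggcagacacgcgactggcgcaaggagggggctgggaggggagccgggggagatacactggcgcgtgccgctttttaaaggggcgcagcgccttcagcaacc
Spdef: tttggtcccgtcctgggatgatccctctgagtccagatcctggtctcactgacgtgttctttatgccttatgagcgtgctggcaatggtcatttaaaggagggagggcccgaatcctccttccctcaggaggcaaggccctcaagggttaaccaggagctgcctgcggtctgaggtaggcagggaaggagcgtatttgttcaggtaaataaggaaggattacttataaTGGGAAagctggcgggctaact
Foxa3: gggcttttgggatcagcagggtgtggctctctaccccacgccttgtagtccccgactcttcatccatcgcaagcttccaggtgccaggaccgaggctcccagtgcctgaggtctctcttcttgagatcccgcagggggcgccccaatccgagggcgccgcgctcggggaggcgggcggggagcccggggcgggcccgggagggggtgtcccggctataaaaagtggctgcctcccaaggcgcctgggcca
Jag1: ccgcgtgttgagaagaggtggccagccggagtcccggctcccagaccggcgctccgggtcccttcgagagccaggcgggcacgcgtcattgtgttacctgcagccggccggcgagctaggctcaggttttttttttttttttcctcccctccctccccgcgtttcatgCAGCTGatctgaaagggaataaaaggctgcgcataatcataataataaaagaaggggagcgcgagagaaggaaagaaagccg
Both strands were searched, and CAGCTG reads the same on each. TGGGAA was found before Spdef, and CAGCTG before Jag1 and before 1 of the 2 starts listed for Dll1. Among 32851 RefSeq mouse promoters, 13.0% held CAGCTG and 21.6% held TGGGAA in the same 250 bases. A match is a description of the letters and not of binding.

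Levels are given as CPM, the depth-scaled count: the UMIs of a gene relative to all UMIs summed over the cells of a gate in 1 library. They compare gates and libraries for 1 gene at a time, not genes with each other. The Paneth marker list took 64.5% to 67.2% of the UMIs of the Paneth gate, which lowers the CPM of all other genes there. For this reason some levels are also given outside the marker lists, as CPM of the UMIs of genes in none of the lists.

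Atoh1 (chr6:64729125-64731245, plus strand, mm10), the factor that commits cells to the secretory path, was highest in the goblet gate at 153 and 136 CPM in 2D-1 and 2D-2, against 124 and 128 CPM in 0D-1 and 0D-2. Dividing goblet cells had 148 and 125 CPM in the 2D libraries, against 101 and 124 CPM in the 0D libraries, and their range overlapped that of the goblet gate. Below these came dividing intermediate goblet cells (mean 47.1 CPM over the 4 libraries), intermediate goblet cells (34.8 CPM) and Paneth cells (17.5 CPM), each without overlap with the next on this scale. The 7 other gates had means of 2.00 to 5.33 CPM with ranges that ran into each other. In the stem gate, the values rested on 7 and 8 UMIs in 2D-1 and 2D-2 and on 6 and 1 UMIs in 0D-1 and 0D-2. Outside the marker lists, Atoh1 averaged 53.3 ± 9.73 CPM in Paneth, 48.2 ± 2.67 CPM in dividing intermediate goblet and 35.6 ± 8.27 CPM in intermediate goblet cells (SD, n = 4 libraries). Paneth cells were therefore not below the intermediate goblet gates on that scale. On both scales Atoh1 was highest in the goblet and dividing goblet gates, and it was lower in the Paneth and enteroendocrine gates.

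Spdef (chr17:27714352-27728955, minus strand), an Ets factor of goblet and Paneth maturation, had a like order. It stood at 307 and 227 CPM in goblet cells of the 2D libraries, against 203 and 215 CPM in those of the 0D libraries, followed by dividing goblet cells at 220 and 151 CPM, against 136 and 147 CPM. The dividing intermediate and intermediate goblet gates overlapped at means of 62.0 and 60.2 CPM, and Paneth and tuft cells at 21.5 and 20.5 CPM. The remaining 6 gates had means of 1.71 to 5.17 CPM. Outside the marker lists, Paneth cells had 53.9 to 71.3 CPM of Spdef. That was above tuft cells (13.7 to 30.9 CPM) without overlap, and within reach of the intermediate goblet gate (48.6 to 79.8 CPM). Gfi1 (chr5:107716657-107726036, minus strand), a zinc-finger repressor that acts downstream of Atoh1 and favours goblet and Paneth over endocrine cells, was sparse. It reached 16.1 and 17.6 CPM in goblet cells of 2D-1 and 2D-2, against 17.3 and 17.0 CPM in 0D-1 and 0D-2, and 9.96 to 16.5 CPM in dividing goblet cells. The stem gate held 1 UMI of Gfi1 in all, in 0D-1. The 0 of 155 and 0 of 185 cells in 2D-1 and 2D-2 allow shares of cells with a Gfi1 UMI of up to 1.94% and 1.62% (3 counts over the cells, counting error alone).

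Foxa3 (chr7:19013284-19023538, minus strand), a forkhead factor, had a wider spread. Goblet cells had 199 and 214 CPM in 2D-1 and 2D-2, against 181 and 179 CPM in 0D-1 and 0D-2, and stood apart from dividing goblet cells at 147 and 148 CPM, against 124 and 132 CPM. Intermediate goblet and enteroendocrine cells overlapped at means of 90.1 and 73.2 CPM. Stem cells had 35.9 to 39.8 CPM, a range that touched those of tuft and Paneth cells on this scale. Dividing cells without lineage, dividing absorptive and absorptive cells had means of 5.84, 3.94 and 3.55 CPM. Foxa3 was therefore measured in the stem gate, where Atoh1 and Spdef had means of 2.39 and 2.46 CPM. Outside the marker lists, Foxa3 was at 102 to 119 CPM in Paneth cells. Stem cells (36.2 to 40.1 CPM) and tuft cells (37.4 to 47.3 CPM) lay below that range without overlap. Sox9 (chr11:112782224-112787760, plus strand), an HMG-box factor of stem cells and required for Paneth cells, was highest in tuft cells at 534 and 473 CPM in 2D-1 and 2D-2, against 441 and 461 CPM in 0D-1 and 0D-2. On this scale stem cells came next with 203 and 174 CPM, against 162 and 154 CPM, without overlap with the tuft gate or with dividing stem cells (117 to 131 CPM). Goblet cells had 143 and 134 CPM, against 100 and 99.1 CPM, and the range of the goblet gate overlapped that of dividing stem cells. Paneth cells had 48.2 to 68.8 CPM. Absorptive cells were lowest at 7.45 to 12.6 CPM. Outside the marker lists, Sox9 averaged 179 ± 21.7 CPM in Paneth cells and 174 ± 21.5 CPM in stem cells (SD, n = 4 libraries), with overlapping ranges.

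**Figure D1:**
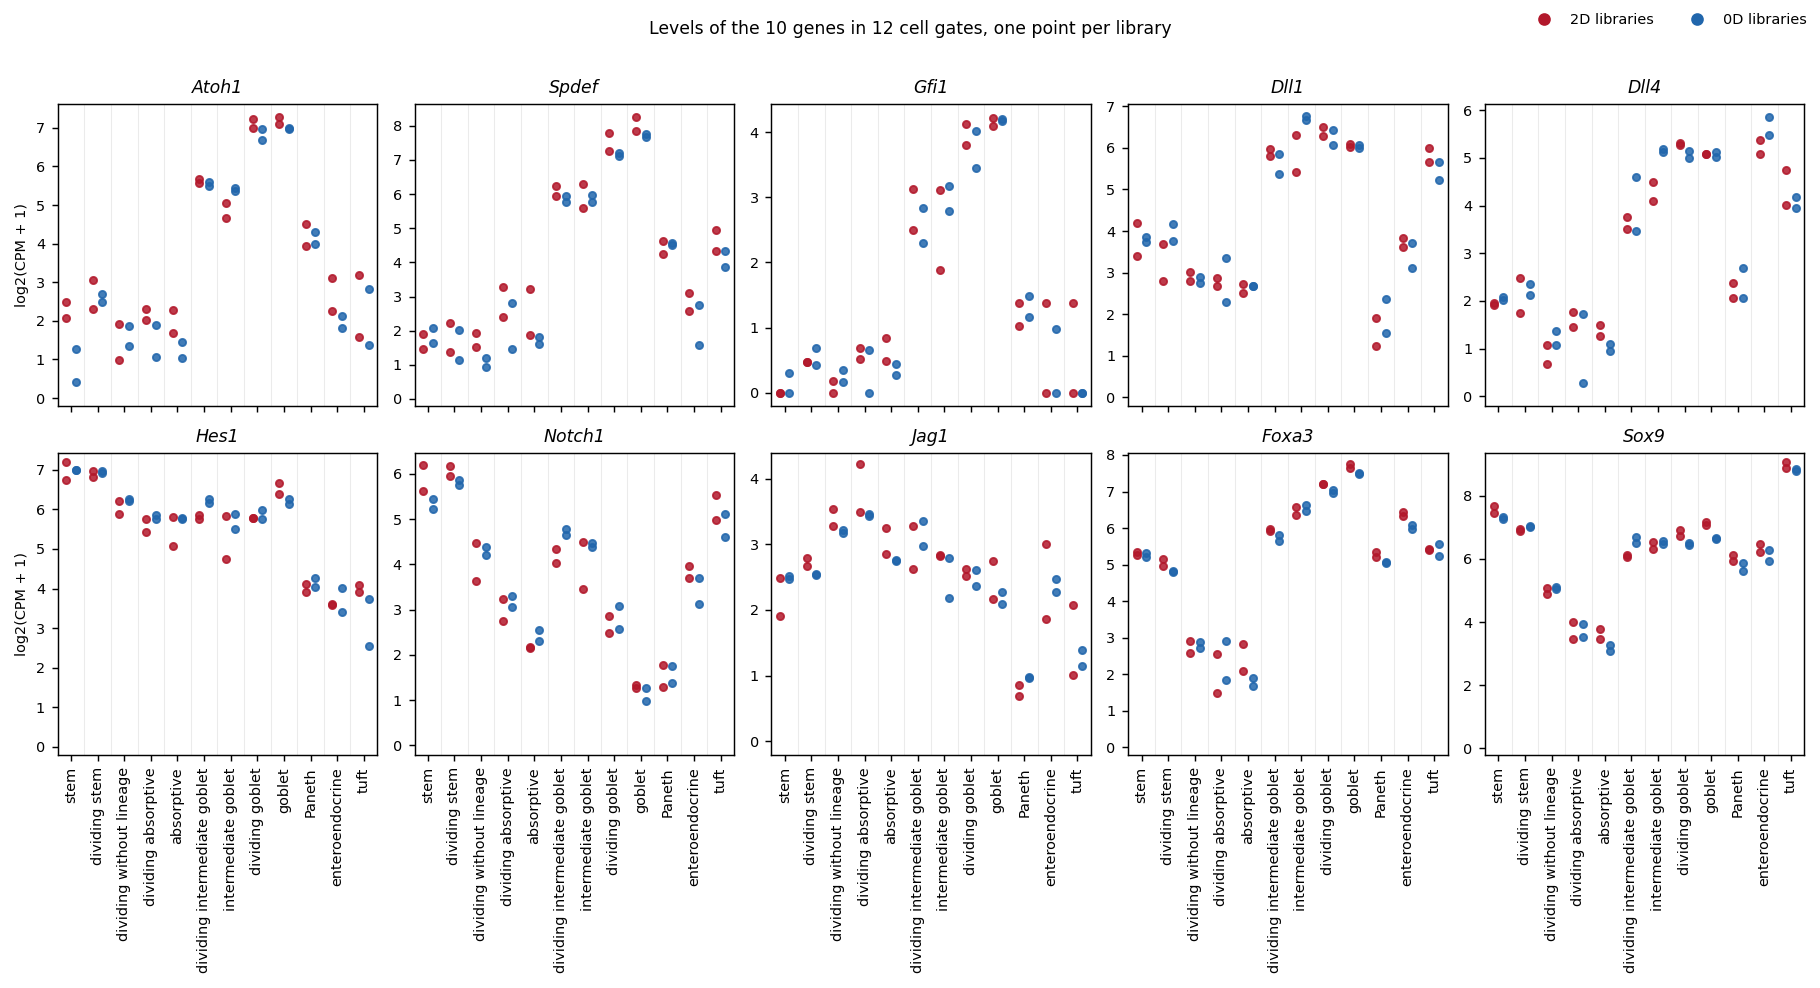
Level of each of the 10 genes in the 12 gates, as log2(CPM + 1) from the UMIs of a gate in 1 library with a scale of its own in each panel, 1 point per library and 2D left of 0D. Atoh1, Spdef, Gfi1 and Foxa3 peak in the goblet gate, Sox9 in the tuft gate (441 to 534 CPM before the log), and Hes1 and Notch1 in the stem and dividing stem gates.

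The ligands Dll1 and Dll4 were carried by secretory gates. Dll1 (chr17:15367354-15376872, minus strand) was highest on average in the intermediate goblet gate, at 41.5 and 78.1 CPM in 2D-1 and 2D-2, against 100 and 108 CPM in 0D-1 and 0D-2. The 2D values were both below the 0D values there, and the gate holds only 76 to 88 cells per library. Dividing goblet cells had 65.9 to 89.7 CPM and goblet cells 62.8 to 67.4 CPM, with overlapping ranges along these gates. Tuft cells had 36.7 to 62.7 CPM. Stem, dividing stem and enteroendocrine cells had means of 13.2, 11.9 and 11.1 CPM, and Paneth cells 1.35 to 4.18 CPM, the lowest of the 12 gates on this scale. The Paneth marker list took 64.5% to 67.2% of the UMIs of that gate, which lowers the CPM of all other genes there. Scaled to the UMIs outside the marker lists, Dll1 averaged 7.88 ± 3.95 CPM in Paneth cells and 5.36 ± 0.42 CPM in absorptive cells (SD, n = 4 libraries), so it was not lowest in Paneth cells on that scale.

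Dll4 (chr2:119325784-119335962, plus strand) was highest in enteroendocrine cells, at 40.6 and 32.9 CPM in 2D-1 and 2D-2, against 43.8 and 56.7 CPM in 0D-1 and 0D-2. That range overlapped dividing goblet cells (30.8 to 39.0 CPM), which overlapped goblet cells (31.3 to 33.7 CPM). Stem and dividing stem cells had means of 2.99 and 3.60 CPM, and absorptive cells 1.33 CPM. Dll4 thus had overlapping levels in goblet and endocrine cells, whereas Dll1 was lower in endocrine than in goblet cells. Jag1 (chr2:137081456-137116644, minus strand), a ligand of the other Notch ligand class, had a different order. It was highest in dividing absorptive cells, at 10.3 and 17.6 CPM in the 2D libraries, against 9.80 and 9.96 CPM in the 0D libraries, followed by dividing cells without lineage (8.01 to 10.6 CPM), and lowest in Paneth cells (0.620 to 0.968 CPM). From dividing absorptive down to goblet cells each gate overlapped the next in the order, and tuft cells (1.00 to 3.21 CPM) lay between goblet and Paneth cells without overlap. Outside the marker lists Jag1 was at 1.81 and 2.43 CPM in Paneth cells of the 2D libraries, against 3.03 and 3.01 CPM in those of the 0D libraries, within the range of tuft cells on that scale (1.03 to 3.31 CPM).

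The receptor Notch1 (chr2:26457903-26516663, minus strand) was highest in dividing stem cells, at 60.5 and 71.3 CPM in 2D-1 and 2D-2, against 57.7 and 52.8 CPM in 0D-1 and 0D-2. Stem cells had 48.5 and 72.7 CPM, against 42.5 and 36.6 CPM, and tuft cells 23.2 to 45.2 CPM, each overlapping the gate before it. Levels were lower in the dividing intermediate goblet gate (mean 21.3 CPM), in dividing goblet cells (5.81 CPM) and in goblet cells (1.34 CPM). Hes1 (chr16:30064384-30067796, plus strand), the repressor induced by Notch, had 107 and 146 CPM in stem cells of the 2D libraries, against 127 and 126 CPM in those of the 0D libraries, and 112 to 125 CPM in dividing stem cells. Goblet cells came next with 100 and 83.0 CPM, against 69.7 and 76.5 CPM, above their dividing counterparts at 53.5 to 62.2 CPM. Enteroendocrine, tuft and Paneth cells had the lowest means, 11.7, 11.8 and 16.1 CPM. Outside the marker lists Hes1 averaged 49.1 ± 6.83 CPM in Paneth cells and 49.6 ± 10.7 CPM in absorptive cells (SD, n = 4). Hes1 was therefore not low in all secretory gates, since goblet cells stood above absorptive cells (33.0 to 54.9 CPM) without overlap.

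Differences between gates were tested with edgeR's quasi-likelihood test on the sums, with the library as a block, and called at an adjusted p under 0.05 and at least 2-fold. In goblet against absorptive cells, 8 of the 10 genes were called, where 33.4% of the 12169 genes tested were (18.9% higher and 14.6% lower). The higher ones were Spdef (log2 difference 6.07 ± 0.26, standard error), Atoh1 (6.04 ± 0.22), Foxa3 (5.84 ± 0.23), Gfi1 (5.34 ± 0.24), Dll4 (4.71 ± 0.17), Sox9 (3.67 ± 0.10) and Dll1 (3.66 ± 0.09). Notch1 was lower in goblet cells by a log2 difference of -1.53 ± 0.19 (edgeR adjusted p 6.8e-05). Hes1 (0.83 ± 0.15, edgeR adjusted p 8.9e-04) and Jag1 (-0.61 ± 0.17, edgeR adjusted p 0.00972) passed on p but not on size. The median log2 difference was 4.19 over the 10 genes and 0.03 over all genes tested.

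The same contrast among dividing cells called 8 of 10, where 21.8% of genes were (13.2% higher and 8.6% lower). Atoh1 (5.50 ± 0.16), Gfi1 (5.06 ± 0.35), Spdef (4.90 ± 0.17), Foxa3 (4.90 ± 0.17), Dll4 (4.42 ± 0.24), Dll1 (3.56 ± 0.17) and Sox9 (2.98 ± 0.12) were higher in dividing goblet than in dividing absorptive cells. Jag1 was lower (-1.27 ± 0.18, edgeR adjusted p 2.7e-05), and with gate thresholds 1.5 times higher it was at -0.89, under the 2-fold limit. Hes1 differed by 0.09 ± 0.09 (edgeR adjusted p 0.407). Notch1 differed by -0.42 ± 0.17, and by -1.34 when the cells with the highest doublet scores were left out, which brought it past the limit. The goblet pattern of the fate factors and of Dll1 and Dll4 was thus also measured in the dividing goblet gate. Without the highest doublet scores this gate held 448 of 510 and 465 of 561 cells in 2D-1 and 2D-2. In 0D-1 and 0D-2 it held 366 of 505 and 394 of 499 cells. The part of any remaining doublets in these differences was not tested.

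In stem against absorptive cells, 6 of the 9 genes tested were called, where 35.4% of genes were (19.5% higher and 15.9% lower), and all 6 were higher. They were Sox9 (4.04 ± 0.09), Notch1 (3.37 ± 0.15), Foxa3 (3.34 ± 0.20), Hes1 (1.24 ± 0.07), Dll1 (1.13 ± 0.18) and Dll4 (1.11 ± 0.34). Dll1 was under 2-fold without 2D-2 (0.95), and Dll4 missed the threshold without 0D-1 (0.97, edgeR adjusted p 0.057) and without 0D-2 (0.90, edgeR adjusted p 0.0573). Atoh1 (-0.18 ± 0.40, edgeR adjusted p 0.687) and Spdef (-0.62 ± 0.35, edgeR adjusted p 0.127) were not called, though Spdef was at -1.04 and past the threshold without 0D-2. Gfi1 had too few UMIs to be tested.

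Within the secretory gates the 10 genes parted again. In enteroendocrine against goblet cells, 8 of 10 were called, where 39.9% of genes were (21.8% higher and 18.1% lower). Notch1 was higher (2.37 ± 0.21), and Spdef (-6.26 ± 0.18), Atoh1 (-5.64 ± 0.19), Gfi1 (-5.30 ± 0.35), Hes1 (-3.58 ± 0.14), Dll1 (-3.28 ± 0.14), Foxa3 (-2.16 ± 0.12) and Sox9 (-1.44 ± 0.11) were lower. Dll4 differed by -0.37 ± 0.12 and Jag1 by -0.59 ± 0.24. With library size as the only scaling, which moved the median of all genes by 0.71, Sox9 was at -0.68, and Dll4 and Jag1 turned to 0.39 and 0.13.

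In Paneth against goblet cells, 5 of 10 were called, where 19.3% of genes were (11.1% higher and 8.21% lower). Notch1 (2.88 ± 0.23) and Sox9 (1.33 ± 0.11) were higher and Dll1 (-2.38 ± 0.19), Gfi1 (-1.26 ± 0.18) and Spdef (-1.11 ± 0.12) lower, all relative to the bulk of genes. The scaling decides much here, because the Paneth marker list took 64.5% to 67.2% of the UMIs of the Paneth gate. With library size alone the median of all genes moved by -2.34. That scaling called 9 of the 10 genes, where 11208 of the 11880 genes tested were called. Sox9 was then lower at -1.01, Jag1 at -2.32, and Notch1 was under the limit at 0.54. Scaled only to the UMIs outside the marker lists, in CPM, Sox9 averaged 179 ± 21.7 in Paneth cells and 143 ± 25.5 in goblet cells (SD, n = 4), with overlapping ranges. On that scale Notch1 averaged 6.02 ± 1.59 in Paneth cells and 1.61 ± 0.27 in goblet cells, Dll1 7.88 ± 3.95 and 78.1 ± 1.48, and Spdef 65.7 ± 8.01 and 286 ± 50.4. Of the 5 called differences, the higher Notch1 and the lower Dll1, Gfi1 and Spdef in Paneth cells held the same direction with both scalings of the edgeR test.

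**Figure D2:**
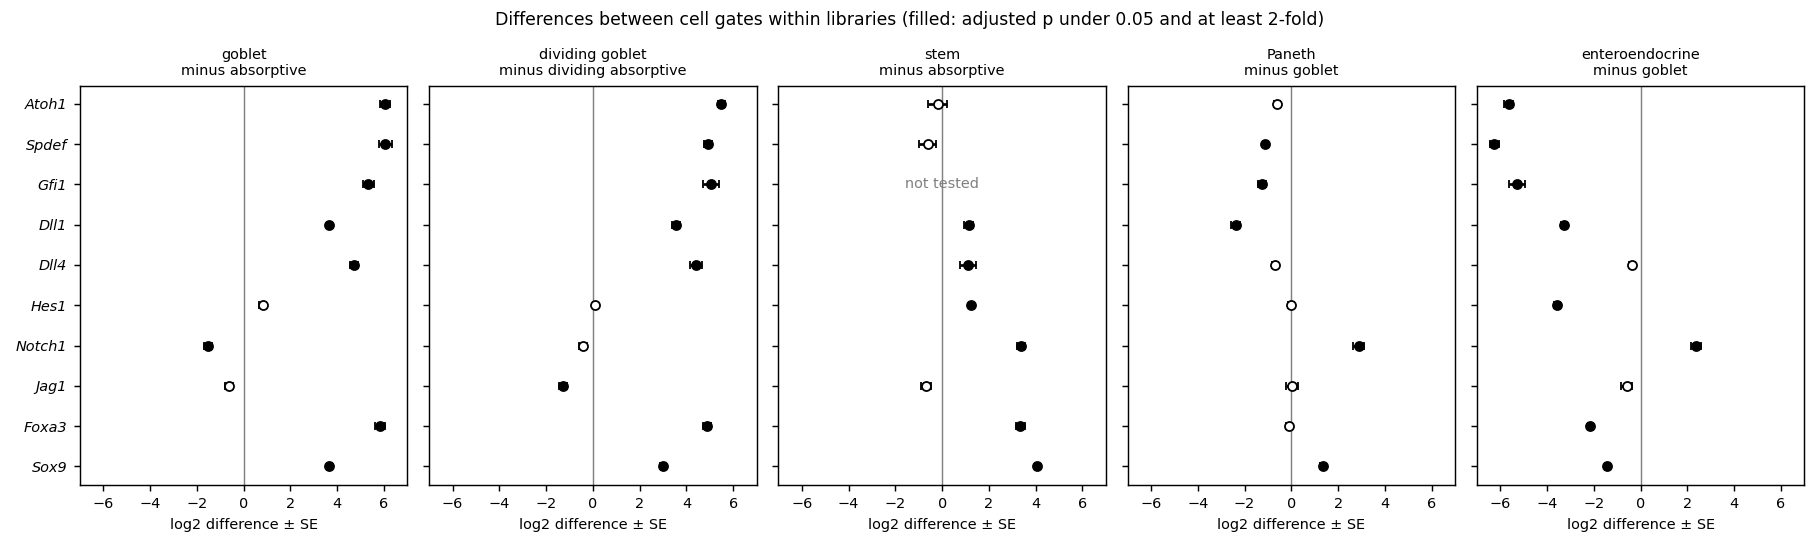
Log2 difference of each of the 10 genes between gates with its standard error (edgeR, library as a block, TMM scaling), with filled points for calls at an adjusted p under 0.05 and at least 2-fold. Goblet cells carry 7 of the genes at higher levels than absorptive cells, and stem cells share the higher Sox9 and Foxa3 but not Atoh1 or Spdef. Dll1 (1.13) and Dll4 (1.11) are also called in stem against absorptive cells. Both lie near the 2-fold limit, and each missed the call in a run without 1 library. In Paneth against goblet cells the signs of Sox9 and Jag1 turn with library-size scaling.

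The other 58 genes of the Notch pathway and of secretory fate gave 19 higher and 3 lower of 49 tested in goblet against absorptive cells. Over all genes tested in that contrast, 18.9% were higher and 14.6% lower. The fate factors took most of the 19, with 11 of 16 tested higher and 0 lower. The leading genes were Creb3l4 (log2 difference 6.32), a transcription factor held in the endoplasmic reticulum membrane, Lfng (5.07), a sugar transferase that modifies Notch receptors, Foxa2 (5.04), Creb3l1 (4.86) and Neurl1a (4.78), a ubiquitin ligase that acts on ligands. Of the receptors, Notch2 was lower in goblet cells (-1.90), and Rbpj, the nuclear partner, differed by -0.12. Hes6, a Hes-family member that opposes Hes1, was higher (1.67), as was Olfm4 (1.02), a stem cell gene that responds to Notch. Among dividing cells, 12 of 44 tested were higher in dividing goblet cells and 1 was lower, where 13.2% and 8.6% of all genes were. Lfng (5.51), Creb3l4 (5.22), Creb3l1 (4.35), Klf4 (4.34) and Foxa2 (4.12) led there.

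In stem against absorptive cells, 12 of 41 tested were higher and 7 lower, where 19.5% and 15.9% of all genes were, led by Olfm4 (7.27), Neurog3 (5.95), Sox4 (5.45) and Foxa2 (3.81), with Neurl1b (-2.47) lower. Notch2 (2.32) and Hes6 (1.39) were higher in stem cells, and Rbpj differed by 0.73, under 2-fold. In enteroendocrine against goblet cells, 11 of 50 tested were higher and 12 lower, near the shares over all genes (21.8% and 18.1%). Insm1 (6.91) and Neurog3 (5.24), both endocrine factors, and Mfng (4.196), a relative of Lfng, were higher, and Creb3l4 (-6.09) and Bhlha15 (-4.40) lower. In Paneth against goblet cells, 6 of 47 tested were higher and 5 lower, also near the shares over all genes (11.1% and 8.21%). Olfm4 (3.31), Dll3 (3.08) and Bhlha15 (2.52) were higher, and Id3 (-2.52) and Id1 (-2.51), inhibitors of factors of the Atoh1 class, were lower, under the scaling relative to the bulk of genes.

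To compare cells of unlike depth, each cell was thinned to 5000 UMIs and shallower cells were left out, which kept 4727 of 6154 gated cells in 2D-1, 5351 of 6910 in 2D-2, 5893 of 6532 in 0D-1 and 5448 of 6191 in 0D-2. After thinning, an Atoh1 UMI was found in 51.0% and 46.4% of goblet cells in 2D-1 and 2D-2, against 43.8% and 45.9% in 0D-1 and 0D-2. Before thinning, the shares were 57.7% and 59.96%, against 64.4% and 70.7%, at median depths of 6762 and 8941 UMIs, against 10669 and 12498 UMIs. The order of the groups thus turned with the thinning, which evened the depth and also left out shallower cells. The part of each in this turn was not tested. Absorptive cells had thinned shares of 2.17% and 1.88%, against 0.355% and 0.687%. Stem cells had shares of a like size, with 1.95% and 1.72%, against 0.524% and 0%. There, 0 of 242 cells allows a share of up to 1.24% by the same limit of 3 counts. The source of these few Atoh1 UMIs was not tested.

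For Spdef, thinned shares in 3 of the goblet gates were 31.6% and 26.5% of dividing intermediate goblet cells in the 2D libraries, against 28.2% and 17.2% in the 0D libraries, then 66.1% and 51.1% of dividing goblet cells, against 49.5% and 55.9%, and 74.6% and 65.1% of goblet cells, against 62.5% and 65.3%. Hes1 was found in 38.3% and 42.5% of stem cells, against 41.1% and 41.7%, and in 4.11% and 4.27% of enteroendocrine cells, against 4.66% and 3.60%. Notch1 was found in 23.5% and 31.2% of dividing stem cells, against 21.6% and 24.1%, and in 0.371% to 0.623% of goblet cells over the 4 libraries. Sox9 was found in 87.0% to 93.1% of the 29 to 68 tuft cells per library that were deep enough, and in 2.61% to 6.13% of absorptive cells. Even in its main gate, then, a fate factor such as Atoh1 left a UMI in only part of the cells at this depth.

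**Figure D3:**
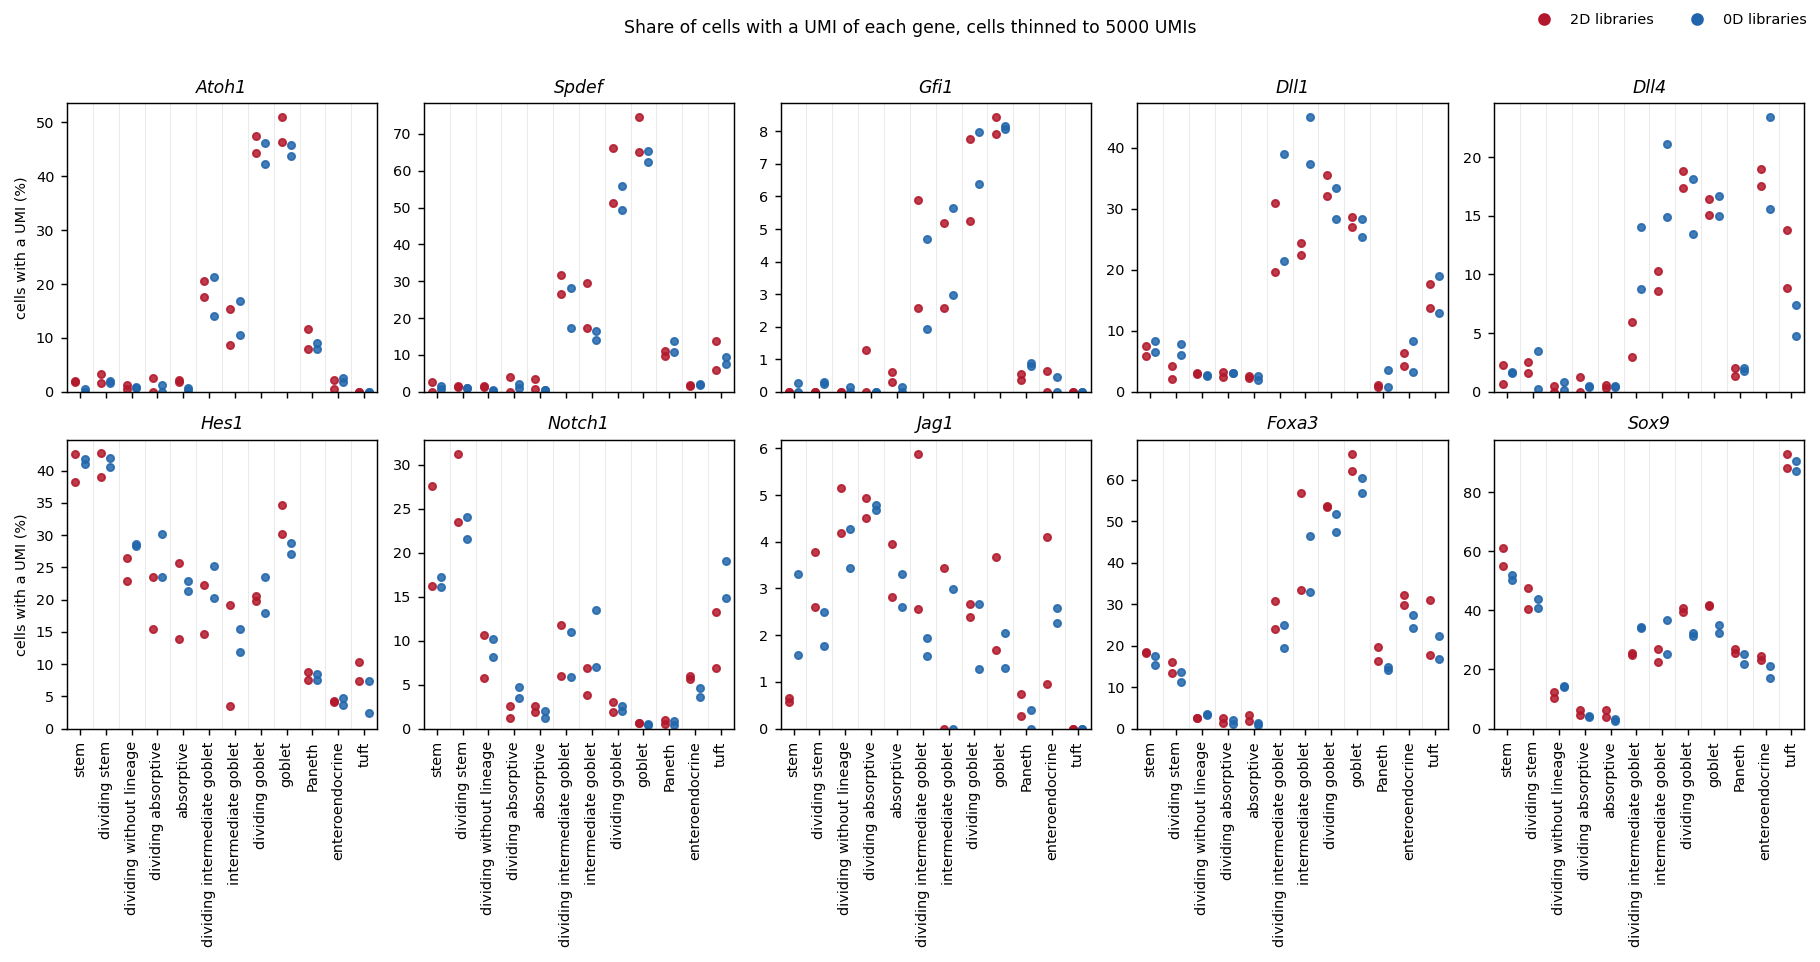
Share of cells with at least 1 UMI of each gene (%) after thinning every cell to 5000 UMIs, 1 point per library, 2D left of 0D in each gate. Atoh1 is found in 43.8% to 51.0% of goblet cells and in 0% to 1.95% of stem cells, and Sox9 in 87.0% to 93.1% of tuft cells.

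In goblet marker UMIs, the dividing intermediate goblet gate lies between dividing cells without lineage and dividing goblet cells. Its cells were split by whether a Dll1 UMI was found. At this depth a cell that carries Dll1 can show no UMI, so Dll1-positive and Dll1-negative name detection and not 2 kinds of cell. After thinning, 91 cells had a Dll1 UMI (23 and 21 in the 2D libraries, 22 and 25 in the 0D libraries). Spdef was found in 47.8% and 42.9% of Dll1-positive cells in 2D-1 and 2D-2 and in 45.5% and 24.0% of those in 0D-1 and 0D-2. In Dll1-negative cells it was found in 27.7% and 19.1%, and in 23.5% and 12.8%. Spdef thus averaged 40.0% ± 10.9 in Dll1-positive and 20.8% ± 6.34 in Dll1-negative cells (SD, n = 4 libraries) and was higher with Dll1 in 4 of 4 libraries. Foxa3 averaged 37.7% ± 8.04 with Dll1 and 19.96% ± 4.42 without, and Gfi1 7.69% ± 2.19 and 2.28% ± 1.48, also higher in 4 of 4. Atoh1 averaged 23.4% ± 8.49 with Dll1 and 15.97% ± 5.48 without, higher in 3 of 4 libraries and lower in 2D-1 (13.0% with and 22.3% without). Dll4 averaged 10.6% ± 8.44 and 6.81% ± 2.64, higher in 3 of 4. Hes1 ran the other way, with 12.3% ± 6.76 in Dll1-positive and 24.6% ± 5.87 in Dll1-negative cells, lower in 4 of 4 libraries. Notch1 was lower in 4 of 4 as well, with 4.60% ± 3.89 and 10.8% ± 5.65. Sox9 was at 27.2% ± 11.7 and 31.1% ± 3.92, higher with Dll1 in 1 of 4 libraries. The median share of goblet marker UMIs per 10000 was also higher with Dll1 in each library, at 151 against 111 in 2D-1, 154 against 152 in 2D-2, 163 against 153 in 0D-1 and 122 against 109 in 0D-2, and its part in these shares was not tested. This gate had the highest median Scrublet doublet score of the 12 (0.146, against 0.02 to 0.084 in the others), and without the highest scores it held 92 of 132 and 75 of 87 cells in the 2D libraries, and 84 of 110 and 58 of 85 cells in the 0D libraries. In each library the median score was lower in Dll1-positive than in Dll1-negative cells, at 0.152 against 0.200 in 2D-1, 0.0769 against 0.150 in 2D-2, 0.0781 against 0.190 in 0D-1 and 0.100 against 0.181 in 0D-2. The part of doublets in these shares was not tested.

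The cells with Dll1 are few and were not replicates, so no test was run on them. In dividing stem cells, Hes1 was found in 24.8% ± 16.7 of 63 Dll1-positive cells and in 41.7% ± 1.80 of the others. It was lower in 4 of 4 libraries, but the share in 2D-2 rested on 0 of 4 cells. The Dll1-positive shares were 30.0% in 2D-1, 33.3% in 0D-1 and 36.0% in 0D-2. The mean was also lower with Dll1 in stem cells (34.3% ± 7.47 against 41.4% ± 2.04) and in dividing cells without lineage. In stem cells, and likewise in dividing cells without lineage, Hes1 was higher with Dll1 in 1 of 4 libraries. In the dividing goblet gate the contrast was small, with Hes1 in 19.5% ± 3.62 of 590 Dll1-positive and 20.9% ± 1.83 of Dll1-negative cells. Hes1 was lower with Dll1 there in 3 of 4 libraries. In goblet cells, Spdef was found in 67.1% ± 4.81 of Atoh1-positive and 66.6% ± 5.79 of Atoh1-negative cells. A missing UMI in a cell therefore did not separate goblet cells by Spdef at this depth.

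**Figure D4:**
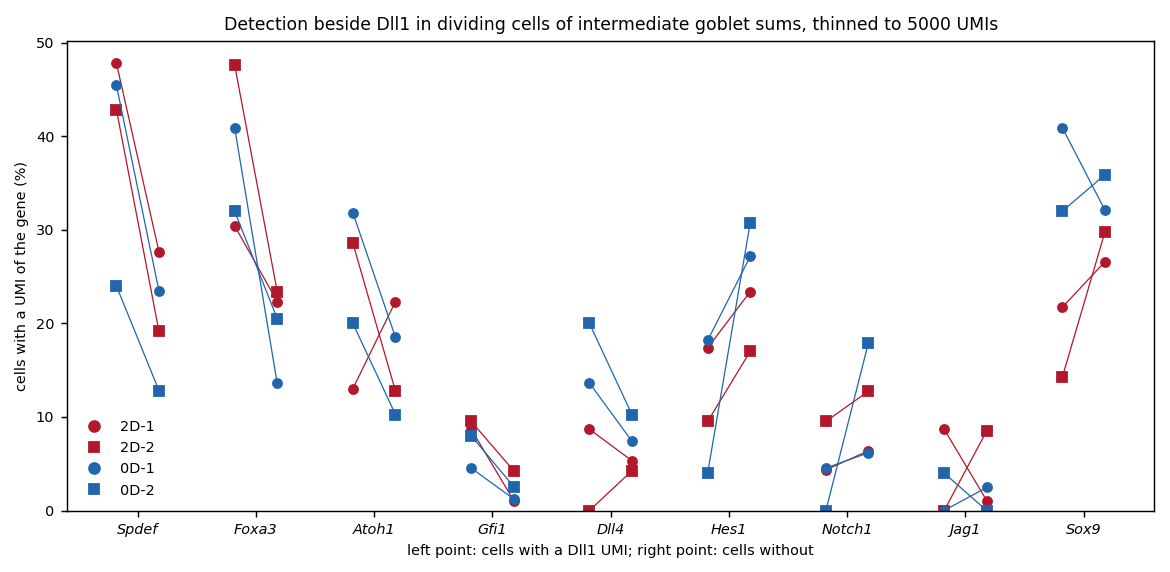
Share of cells (%) with a UMI of the other genes in Dll1-positive and Dll1-negative cells of the dividing intermediate goblet gate after thinning to 5000 UMIs, with 1 pair of joined points per library, Dll1-positive cells on the left. Spdef, Foxa3 and Gfi1 are higher and Hes1 and Notch1 lower with Dll1 in 4 of 4 libraries.

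The comparison of 2D with 0D libraries asks whether these genes differed after sleep deprivation within each gate. It was run in 7 gates with 62 tests of the 10 genes in all, and none of the 62 passed an edgeR adjusted p of 0.05, while 9 had an unadjusted p under 0.05. DESeq2 also called 0, and it gave no adjusted p for some genes, Notch1 in stem and in Paneth cells among them. The members tested were 6 in stem cells, 9 in dividing cells without lineage, 10 in dividing goblet, 10 in goblet, 10 in Paneth, 8 in enteroendocrine and 9 in absorptive cells. Over all genes tested, edgeR called 0.173% in stem cells, 0.00856% in dividing cells without lineage, 0.176% in dividing goblet, 0.0% in goblet, 0.02% in Paneth, 0.239% in enteroendocrine and 0.142% in absorptive cells. The genes with an unadjusted p under 0.05 made up 11.2%, 11.4%, 9.1%, 7.78%, 6.53%, 6.4% and 13.4% in the same order of gates. In the goblet gate, edgeR called 0 of 12718 genes, with 990 at an unadjusted p under 0.05 and 42 called by DESeq2. With 2 against 2 libraries, an exact permutation test of 1 value cannot go below 0.333.

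In stem cells the 1 gene with a p under 0.05 before adjustment was Notch1, at 48.5 and 72.7 CPM in 2D-1 and 2D-2, against 42.5 and 36.6 CPM in 0D-1 and 0D-2. Its log2 difference was 0.52 ± 0.19 (edgeR adjusted p 0.363). The groups did not overlap, but 2D-2 was far above 2D-1. Without 2D-1 the difference was 0.79 and passed (edgeR adjusted p 7.46e-04), where 2.5% of all genes did, with the lone 2D library assumed to vary like the 0D pair. Sox9 in stem cells differed by 0.18 ± 0.10 (edgeR adjusted p 0.569), and Hes1 by -0.08 ± 0.13 (edgeR adjusted p 0.881). The stem gate held 155 and 185 cells in the 2D libraries, against 393 and 251 in the 0D libraries. In dividing cells without lineage, Spdef differed by 0.97 ± 0.37 (edgeR adjusted p 0.411) at 0.931 to 2.78 CPM. Without 2D-2, Hes1 (-0.37, edgeR adjusted p 0.041) and Notch1 (-0.71, edgeR adjusted p 0.0398) were called there, with 4.56% of all genes. In the same gate Paneth markers summed to 2814 and 3175 CPM in the 2D libraries, against 1323 and 1878 CPM in the 0D libraries, and goblet markers to 793 and 1218 CPM, against 727 and 868 CPM, with no marker of either list at 0, and their part in the difference of Spdef was not tested.

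In goblet cells, Sox9 was at 143 and 134 CPM in 2D-1 and 2D-2, against 100 and 99.1 CPM in 0D-1 and 0D-2, a difference of 0.35 ± 0.15 that did not pass (edgeR adjusted p 0.605). It passed without 2D-1 (0.43, edgeR adjusted p 0.0125), where 2.46% of all genes did, and without 2D-2 (0.28, edgeR adjusted p 0.00969), where 38.0% did. Without 2D-2, Spdef (0.31) and Gfi1 (-0.33) were also called, which makes 3 of 10, near that share. Library size alone moved the median of all genes in this gate by 0.13. In dividing goblet cells, Sox9 had 120 and 106 CPM, against 86.7 and 90.6 CPM (0.31 ± 0.13, edgeR adjusted p 0.529), and Spdef differed by 0.34 ± 0.16 (edgeR adjusted p 0.569). Without 2D-2, Spdef (0.54), Sox9 (0.34) and Atoh1 (0.30) were called there, with 18.9% of all genes. The level of Spdef in both goblet gates was highest in 2D-1, while 2D-2 lay near the 0D libraries. Paneth marker UMIs in the goblet gate came to 22937 and 21343 CPM in the 2D libraries, against 12392 and 14372 CPM in the 0D libraries, and their part in these differences was not tested.

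In absorptive cells the goblet factors had their largest differences. Spdef was at 8.37 and 2.63 CPM in 2D-1 and 2D-2, against 2.49 and 2.03 CPM in 0D-1 and 0D-2 (1.42 ± 0.46, edgeR adjusted p 0.282). Atoh1 was at 3.84 and 2.23 CPM, against 1.07 and 1.74 CPM (1.20 ± 0.39, edgeR adjusted p 0.277), and Foxa3 at 6.11 and 3.24 CPM, against 2.70 and 2.17 CPM (1.02 ± 0.34, edgeR adjusted p 0.282). The high values sat in 2D-1, and without it Spdef differed by 0.23, Atoh1 by 0.67 and Foxa3 by 0.42. Goblet and Paneth marker genes moved with them in the same gate. The 10 goblet markers summed to 2205 and 1860 CPM in the 2D libraries, against 1252 and 1186 CPM in the 0D libraries, and the 11 Paneth markers to 5993 and 4631 CPM, against 1524 and 1902 CPM, with no marker of either list at 0. Their part in the differences of Spdef, Atoh1 and Foxa3 was not tested. The change in goblet cells differed from that in absorptive cells for 0 of the 10 genes (edgeR, gate-by-group term), where 0.047% of genes were called, with 5 of the 10 at an unadjusted p under 0.05 (8.68% of all genes) and 0 called by DESeq2. The smallest adjusted p was that of Atoh1 (-1.15 ± 0.35, edgeR adjusted p 0.444). Without 2D-2, Atoh1, Spdef, Hes1 and Foxa3 were called in that contrast, with 19.6% of all genes.

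In enteroendocrine cells, Dll4 was at 40.6 and 32.9 CPM in the 2D libraries, against 43.8 and 56.7 CPM in the 0D libraries (-0.46 ± 0.17, edgeR adjusted p 0.657). Foxa3 was at 78.7 and 85.4 CPM, against 61.4 and 67.2 CPM (0.33 ± 0.12, edgeR adjusted p 0.657). Neither passed, with or without any 1 library. Goblet markers in this gate summed to 3809 and 4485 CPM in the 2D libraries, against 2519 and 3235 CPM in the 0D libraries, and Paneth markers to 10275 and 10683 CPM, against 3109 and 5169 CPM, with no marker of either list at 0, and their part in the difference of Foxa3 was not tested. In Paneth cells the smallest adjusted p among the 10 genes was that of Dll1 (-0.65 ± 0.40, edgeR adjusted p 0.82).

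Counted by overlap alone, both 2D libraries lay outside the 0D range for 8 of the 10 genes in absorptive cells, where 48.2% of genes of at least 10 CPM did so, and for 5 of 10 in goblet cells, where 49.7% did. In stem cells it was 4 of 10 (45.0% of genes), in dividing stem cells 5 (43.0%), in dividing goblet cells 5 (40.5%) and in dividing intermediate goblet cells 5 (37.6%). It was 4 in intermediate goblet cells (32.9%), 3 in dividing cells without lineage (43.6%), 3 in Paneth cells (44.1%), 3 in enteroendocrine cells (37.1%), 2 in tuft cells (38.3%) and 2 in dividing absorptive cells (36.6%). These shares are of genes of at least 10 CPM, whereas the 10 genes were counted at any level. In absorptive cells each of the 8 had a mean under 10 CPM (0.44 CPM for Gfi1 to 9.66 CPM for Sox9). The 48.2% is therefore not a share of genes at like levels. Foxa3 was above the 0D range in 7 of 12 gates and below it in 0, Atoh1 above in 6 and below in 1, Sox9 above in 6 and below in 2, and Spdef above in 5 and below in 0. Dll4 was above in 2 and below in 4, and Dll1 above in 0 and below in 2. Jag1 was above in 5 and below in 1, Hes1 above in 2 and below in 1, Notch1 above in 2 and below in 2, and Gfi1 above in 1 and below in 0. The 12 gates come from the same 4 libraries, and no share over all genes was computed for counts over gates. These counts carry no test.

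None of the other 58 pathway genes was called between 2D and 0D in any of the 7 gates, with 41 to 49 tested per gate. Olfm4 differed by -0.80 ± 0.18 in dividing goblet cells (edgeR adjusted p 0.261) and by -0.63 ± 0.18 in dividing cells without lineage (edgeR adjusted p 0.351), against -0.01 in stem cells.

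**Figure D5:**
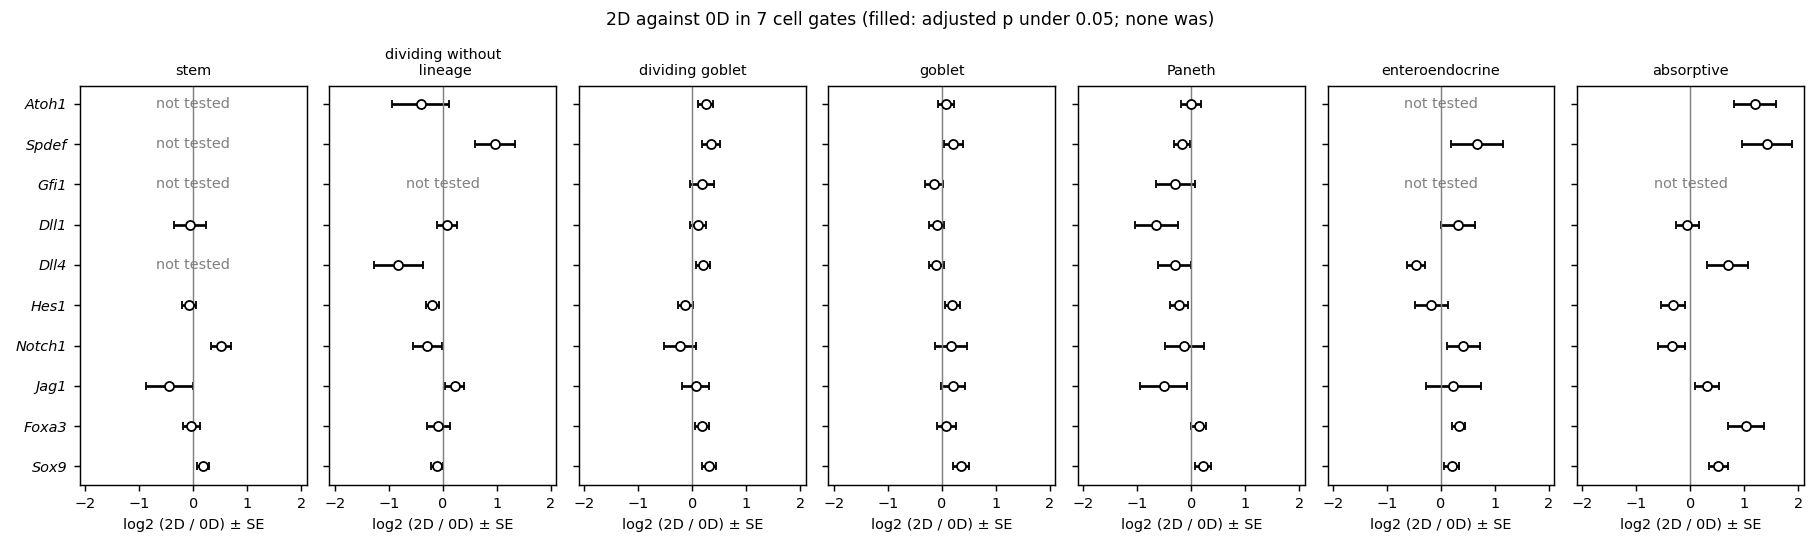
Log2 difference of 2D over 0D with its standard error for each tested gene in 7 gates (edgeR, TMM scaling). Spdef, Atoh1 and Foxa3 in absorptive cells reach 1.02 to 1.42, and 0 of the 62 values passed an adjusted p of 0.05.

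Across the 48 sums (12 gates in 4 libraries, which share libraries and depth), the levels of Atoh1 and Gfi1 were the most alike among the 10 genes (Pearson r of log2(CPM + 1) 0.957), followed by Atoh1 with Spdef (0.929) and Spdef with Gfi1 (0.916). Dll4 ran closest to Foxa3 (0.868), and Dll1 to Dll4 (0.765). Notch1 and Atoh1 had an r of -0.424, and Jag1 and Sox9 of -0.536. These are descriptions over sums that are not independent, with no p. Of the genes outside the set and the marker lists, the levels most like those of Atoh1 were of Galnt5 (0.96), Slc12a8 (0.94) and Qsox1 (0.94), and those most like Spdef of Ern2 (0.98), Slc12a8 (0.96) and Guca2a (0.95). Gfi1 was most like Pdia5, Rep15 and Pla2g10 (0.94 each), and Foxa3 like Rab15 (0.97), Fxyd3 (0.95) and Fam174b (0.94). For the ligands, Dll1 was most like Fgfr2 (0.89), Pmepa1 (0.88) and Akr1b10 (0.87), Dll4 like Mcf2l (0.95), Hepacam2 (0.95) and Fxyd3 (0.94), and Jag1 like Itpka (0.90), Nomo1 (0.89) and Ppara (0.88). Notch1 was most like Kcnq1ot1 (0.96), Clic6 (0.93) and Nme4 (0.93), Hes1 like 2210407C18Rik (0.90), Acss1 (0.87) and Fbln1 (0.87), and Sox9 like Nav2 (0.92), Iqsec1 (0.91) and Cited4 (0.91).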

How the data were processed

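The authors deposited raw UMI counts per gene and cell barcode for each of 4 libraries. Per the submitters' processing notes they came from Cell Ranger 2.1.1 with mm10, while the deposited matrices name version 7.0.0, per the file headers. Whether intron reads were counted is not given in the sources used here. Cells needed at least 500 genes and no more than 20% mitochondrial UMIs. Scrublet called 521 and 0 doublets in the 2D libraries and 624 and 367 in the 0D libraries, so it had failed in 2D-2, and no cell was dropped as a doublet.

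Cells were gated by marker UMIs per 10000 UMIs (goblet 250, Paneth 2000, enteroendocrine 100, tuft 20, absorptive 30, stem 4, dividing 10). Cells past more than 1 lineage limit (2095), in no gate (1805) or immune (44) were left out. Near the stem limit, 877 cells lay within 1.25-fold below and 758 within 1.25-fold above it, and near the absorptive limit 1467 and 939. Immune markers summed to at most 2.51 CPM in every gate but tuft (19.1 to 35.4 CPM).

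UMI counts were summed per library and gate, since cells are not replicates, and CPM were computed from these deposited counts. The sums were tested with edgeR 4.0.16 (quasi-likelihood, filterByExpr, TMM, Benjamini-Hochberg over all genes tested, R 4.3.3, limma 3.58.1), with DESeq2 1.42.0 as an alternative. Gates used Python 3.11.15 and scanpy 1.11.5. Tested on simulated data, the stem comparison recovered 94 of 100 genes changed 2-fold and called 9 unchanged among 9826 genes, the goblet comparison recovered 95 of 100 and called 10 among 12685, and goblet minus absorptive recovered 100 of 100 and called 11 among 12181. The simulated spread was set and not estimated from these libraries, and only genes past a minimum mean count were changed. How often a 2-fold change would be found in genes with few UMIs, or at the spread of the 2D pair, was not simulated.

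The 10 genes, the pathway lists and the markers were chosen with earlier results of these data known. The text names all 10 genes, the pathway genes past the threshold between 2D and 0D (at most 10 a test), the 5 with the largest change past it in each difference between gates, Olfm4, Hes6, Rbpj and Notch2, and the 3 most alike genes of each of the 10 with a mean of at least 10 CPM. Gene positions are those of the mm10 annotation, and promoter sequences those of RefSeq on GRCm38.p6. Alternatives were library-size scaling, no low-count filter, DESeq2, at most 10% mitochondrial UMIs, thresholds 1.5 times higher, the 7% highest doublet scores left out, Olfm4 as a stem marker, a replicate block and each library left out. Same-numbered libraries deviated together with correlations of -0.129 to 0.323 over the gates, and the labels tie them to no shared animal or day.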

Additional observations from a re-analysis of the deposited data

How the results depend on the processing

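Of 1281 values of single genes under alternatives, 1177 kept their direction and their side of the limit, 10 no longer passed it, 21 newly passed it and 73 turned sign, 65 of these from a log2 difference under 0.3 in size. Library size alone gave Sox9 -1.01 and Jag1 -2.32 in Paneth against goblet cells. It called 9 of the 10 genes there, and 11208 of the 11880 genes tested. In enteroendocrine against goblet cells it gave Dll4 0.39 and Jag1 0.13. Between 2D and 0D it gave Atoh1 0.094 in Paneth, Dll1 0.032 and Dll4 0.019 in goblet and Dll1 0.013 and Foxa3 0.041 in stem cells, and in the goblet-absorptive difference of the change Dll1 0.092 and Jag1 0.066. Between 2D and 0D, other settings turned Atoh1 in Paneth cells (0.011 with at most 10% mitochondrial UMIs, 0.076 with thresholds 1.5 times higher, 0.078 without the highest doublet scores and 0.0062 without the low-count filter). At most 10% mitochondrial UMIs turned Dll1 in absorptive (0.0094) and stem (0.051) and Jag1 in dividing goblet cells (-0.017). Higher thresholds turned Dll1 in absorptive cells (0.0015), Dll1 (-0.058) and Foxa3 (0.12) in dividing cells without lineage and Notch1 in goblet cells (-0.078). Leaving out the highest doublet scores turned Dll1 (-0.060), Hes1 (0.15) and Notch1 (0.48) in dividing goblet cells and Dll1 in the difference of the change (0.052), and Olfm4 as a stem marker turned Foxa3 in stem cells (0.0092). Between gates, Hes1 turned in Paneth against goblet cells with at most 10% mitochondrial UMIs (0.028) and without the highest doublet scores (0.024), and in dividing goblet against dividing absorptive cells with higher thresholds (-0.032) and without those scores (-0.14). Jag1 in Paneth against goblet cells was at -0.069 without the low-count filter.

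With 1 library left out, 32 values turned sign at least once. Between 2D and 0D in stem cells, Dll1 ran from -0.52 to 0.34, Hes1 from -0.32 to 0.13 and Foxa3 from -0.10 to 0.034. In dividing cells without lineage Atoh1 ran from -1.06 to 0.43, Dll1 from -0.012 to 0.23, Notch1 from -0.71 to 0.19, Foxa3 from -0.23 to 0.15 and Sox9 from -0.21 to 0.019. In dividing goblet cells it was -0.078 to 0.51 for Gfi1, -0.058 to 0.28 for Dll1, -0.53 to 0.10 for Notch1 and -0.068 to 0.20 for Jag1. In goblet cells it was -0.33 to 0.036 for Gfi1, -0.22 to 0.017 for Dll4, -0.084 to 0.44 for Notch1, -0.036 to 0.44 for Jag1 and -0.092 to 0.25 for Foxa3. Paneth cells gave -0.24 to 0.22 for Atoh1, -0.60 to 0.049 for Gfi1, -1.17 to 0.049 for Dll1, -0.70 to 0.20 for Dll4, -0.63 to 0.27 for Notch1 and -0.015 to 0.28 for Foxa3. Hes1 ran from -0.48 to 0.19 in enteroendocrine and from -0.71 to 0.042 in absorptive cells, and Dll1 from -0.21 to 0.031 in absorptive cells. Between gates, Atoh1 ran from -0.60 to 0.14 in stem against absorptive cells, and Hes1 from -0.13 to 0.12 and Jag1 from -0.11 to 0.35 in Paneth against goblet cells. In the difference of the change Dll1 ran from -0.19 to 0.19, Jag1 from -0.62 to 0.35 and Sox9 from -0.35 to 0.11. The cause of these sign changes was not tested.

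Without the low-count filter, 1 gene (Spdef) was called in the difference of the change between goblet and absorptive cells. With each library left out in turn, the genes called of the 10 ranged from 0 to 1 in stem, 0 to 2 in dividing cells without lineage, 0 to 3 in dividing goblet, 0 to 3 in goblet, and 0 to 4 in the goblet-absorptive difference of the change. They stayed at 0 in Paneth, enteroendocrine and absorptive cells, at 8 in both goblet-absorptive contrasts and in enteroendocrine against goblet cells, at 5 in Paneth against goblet cells, and ranged from 5 to 6 in stem against absorptive cells.

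Counts over all genes moved more between 2D and 0D. The edgeR counts of 17 (stem), 1 (dividing without lineage), 20 (dividing goblet), 0 (goblet), 2 (Paneth), 26 (enteroendocrine) and 16 (absorptive) became 7, 86, 60, 141, 11, 44 and 51 with the replicate number as a block, 29, 70, 43, 42, 6, 20 and 102 with DESeq2, and 240, 386, 0, 248, 147, 181 and 0 without the low-count filter. Without 1 library they ran from 6 to 291, 0 to 546, 91 to 2217, 45 to 4950, 0 to 251, 52 to 141 and 0 to 128, in that order. The difference of the change gave 6, with 1 to 191 under other settings and 31 to 2574 without 1 library, and Paneth against goblet cells gave 2292, with 11208 by library size alone. The cause of these moves was not tested. The replicate block called 0 of the 10 genes in each of the 7 gates. A crossed pairing in dividing cells without lineage, chosen after seeing the data, called 0 of the 10 and 52 genes. A library left out leaves 1 sample in its group, which is then assumed to vary like the other group. Depth limits the genes with few UMIs: Atoh1, Spdef, Gfi1 and Dll4 had too few to be tested between 2D and 0D in stem cells, where the libraries held 0 to 1 UMIs of Gfi1.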
